A study of Mus musculus with 8 samples.

Results

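The 31 genes described here encode proteins of the neutrophil: the enzymes and binding proteins of its granules, its surface receptors, its abundant cytosolic and secreted proteins, its NADPH oxidase, and 2 nuclear proteins of the lineage. They were taken by gene symbol from a table of 32098 gene rows, and all 31 were found. Their expression was compared between 8 mouse tumours of the mammary carcinoma line 4T1, each sequenced as whole tumour RNA and each labelled wild type. Of these, 4 tumours, called ICI 1, 2, 3 and 4, came from animals given an immune checkpoint inhibitor alone, and 4, called RI 1, 2, 4 and 5, from animals given the inhibitor together with radiation, so no group went without the inhibitor. Neither the inhibitor, the dose of radiation, nor the place of a sampled RI tumour relative to the irradiated field is named in the labels. Nor is it stated that each tumour came from its own animal, so a p-value here reflects only how these samples vary, a spread that could be technical.

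Neutrophils fill their granules in sequence while they mature in the bone marrow. Primary granules, with myeloperoxidase and serine proteases, are made in promyelocytes; secondary granules, with lactoferrin and antimicrobial peptides, follow in myelocytes; tertiary granules, with gelatinase, come last, and receptors such as that for G-CSF and the formyl peptide receptors are most abundant on mature cells. Transcripts of the early granule proteins are largely shut off before a neutrophil enters the blood. Growing 4T1 tumours are known for secreting G-CSF and for a marked rise of neutrophils in blood, spleen and tumour. Some of the 31 genes are also used by macrophages, among them Lyz2, Cybb and Mmp9.

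Values are FPKM, fragments scaled to exon length and to the size of the library, so levels of different genes can be compared per length. Libraries held between 26829949 (RI 1) and 42386020 (RI 5) fragments as recovered from the table. Differences are RI minus ICI on log2(FPKM + 1), which understates the change of low genes, and a gene was called at an adjusted p under 0.05 over the 13439 genes tested. ICI 1 was the ICI tumour with the highest S100a9, and each result is given with it and without it. RI 4 also stood apart, with 60.7% of its summed FPKM in 3 rows against 5.14% to 10.9% in the other 7 tumours. The tumour epithelium list (Epcam, Krt8, Krt18, Krt19, Cdh1) summed to 940 to 1978 FPKM in ICI and 759 to 1380 in RI tumours, nearly all of it from the keratins Krt8 and Krt18, each above 332 FPKM in every tumour. Krt19 was at 22.8 FPKM in ICI 1, 25.2 in ICI 4 and 0.0881 to 2.26 in the others, and Epcam at 5.02, 3.19 and 0 to 1.06.

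With all 8 tumours the calprotectin pair S100a8 and S100a9 fell in RI, none of the 31 genes rose, and 21 of the 23 that could be tested were not called. The calls were set beside a background of 6.6% of all genes tested that fell and 11.1% that rose. At an unadjusted p under 0.05 there were 11 members, 9 of them lower in RI. Without ICI 1, 11 members fell (background 8.29%) and 3 rose (background 11.7%). Without ICI 3 it was 4 that fell, and without any other single tumour 0, with none rising in either case. The genes that fell without ICI 1 were S100a8, S100a9, Stfa2, Retnlg, Camp, Ngp, Csf3r, Il1r2, Mcemp1, Fpr2 and Ncf4, and those that rose were Mmp9, Lyz2 and Cybb. Of those that fell, Camp, Ngp, Stfa2, Retnlg and Mcemp1 reached 1 FPKM in fewer than 4 RI tumours. They entered the test through their ICI levels. In these bulk samples fewer neutrophils and less RNA per neutrophil cannot be told apart.

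ICI 1 stood apart from every other tumour in these genes. It held the highest value of 28 of the 31 genes, by more than 3-fold over the next tumour in 26 and by more than 10-fold in 19. The exceptions were Mmp9, highest in RI 2, Lyz2, highest in RI 5, and Padi4, highest in ICI 4. The 31 genes together took 706541 fragments in ICI 1, 2.16% of the fragments recovered for that library. The other ICI tumours gave 0.114% to 0.145% and the RI tumours 0.133% to 0.236%. The lowest RI share was that of RI 4, with 30018297 fragments recovered where its FPKM scale to 36378200. Its share of the whole library would be lower. In RI 2, which had the highest RI share, Hp gave 21292 of the 75460 fragments. Apart from ICI 1, the share taken by the 31 genes was thus of like size in both groups, but its makeup was not. Lyz2, Mmp9 and Padi4 held 44.0% to 68.0% of the members' fragments in ICI 2, 3 and 4 and 61.2% to 82.7% in the RI tumours. S100a8 and S100a9 held 9.14% to 22.0% in ICI 2, 3 and 4, 51.2% in ICI 1 and 0.380% to 1.54% in the RI tumours.

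In 14 of the 31 genes every RI value lay below every ICI value. Leaving out any ICI tumour cannot undo such a separation, so the same 14 without ICI 1 are no check on that tumour. No further gene joined them without ICI 1. Among the 23 tested members it was 12, against a background of 11.2% of all genes tested with ICI 1 and 15.8% without it. No member had all its RI values above all ICI values (background 16.7%), and 3 did once ICI 1 was left out (Mmp9, Lyz2 and Cybb, background 20.1%), so that direction depended on ICI 1. The median difference of the tested members was −1.80, and −0.77 without ICI 1, against 0.011 and 0.022 for all genes tested. Of the 23, 14 reached 1 FPKM in all 8 tumours, whereas 7 reached it in all 4 ICI tumours but in fewer than 4 RI tumours, so their ICI level carried them past the filter. These 7 were Camp, Ngp, Mmp8, Mcemp1, Trem1, Stfa2 and Retnlg. All but Mmp8 and Trem1 were among the 12 separated members and among those that fell without ICI 1. The counts set beside the background thus include members that the ICI level brought into the test.

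**Figure D1:**
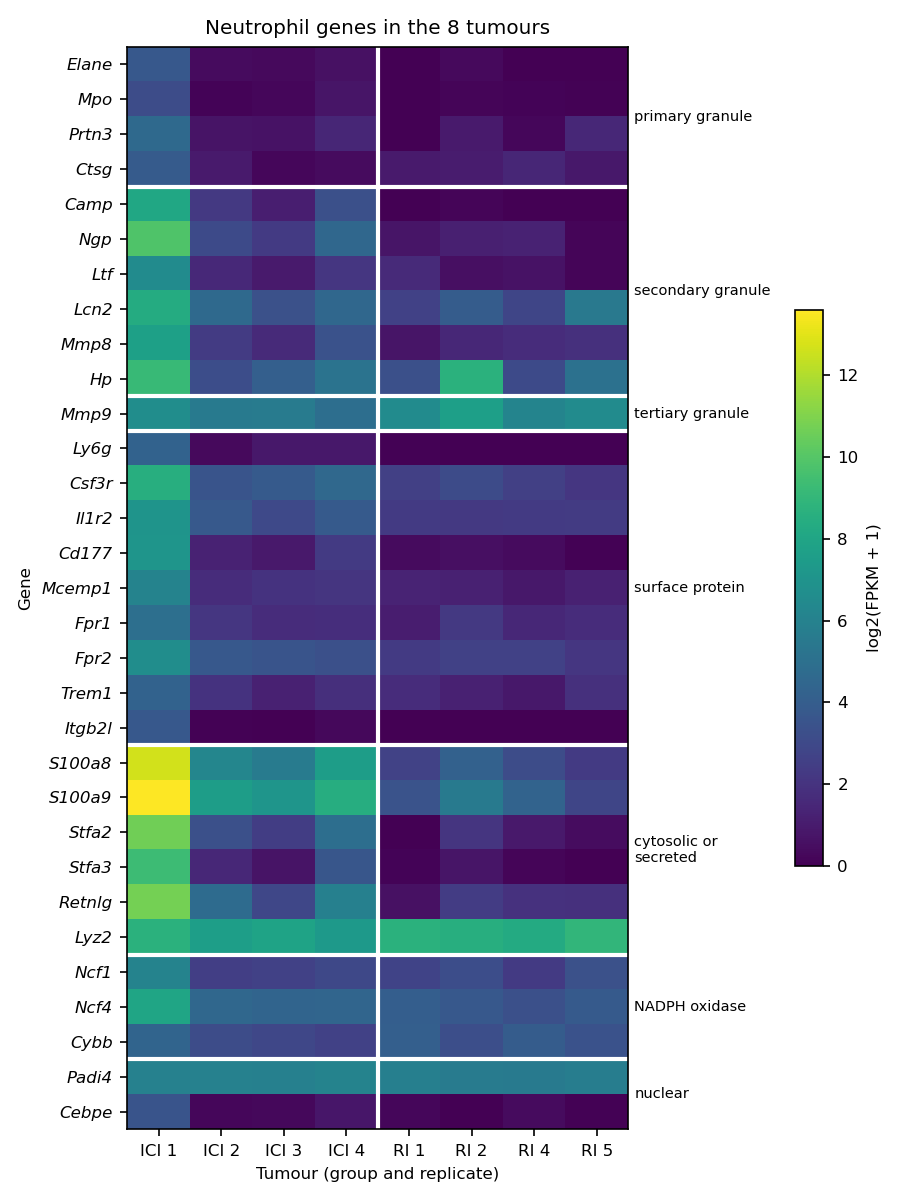
Levels of the 31 genes as log2(FPKM + 1) in the 8 tumours (columns), with rows grouped by role. ICI 1 has the highest value of 28 of the 31 rows, and Mmp9, Lyz2 and Padi4 are the exceptions.

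The promoters of these genes were read for the motifs of 2 factors that act in myeloid cells, the C/EBP factors and PU.1. In RefSeq (GRCm38.p6), 27 members matched a promoter entry, with 28 starts. Hp, Mmp9, Ncf4 and Cebpe matched none and were not read. A C/EBP half-palindrome, TTNNGNAA on either strand, lay in the 250 bases before the start in 15 of the 27 genes, and a PU.1 core, GAGGAA on either strand, in 16. Both lay in 10 genes. Of all 32851 promoters of that length, 36.85% held the C/EBP letters, 23.25% the PU.1 letters and 8.867% both. In no start of a member did the motifs overlap. A match is a description of the letters and not a measured site of binding.

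The promoters of 6 members are shown to set a primary granule gene (Ctsg), a secondary granule gene (Mmp8) and a calprotectin gene (S100a9) beside 3 surface genes. They were chosen after their values and motif matches were seen, among genes for which the bases shown lie outside the annotated exons of that gene. Each gives the 140 bases before the start, 5′ to 3′ on the strand of the gene, with matches to either motif in capitals. S100a9 lies at chr3:90695722-90695861 on the minus strand, Ctsg at chr14:56102575-56102714 on the minus strand, Mmp8 at chr9:7558289-7558428 on the plus strand, Cd177 at chr7:24760312-24760451 on the minus strand, Fpr2 at chr17:17887684-17887823 on the plus strand and Trem1 at chr17:48232599-48232738 on the plus strand.
S100a9: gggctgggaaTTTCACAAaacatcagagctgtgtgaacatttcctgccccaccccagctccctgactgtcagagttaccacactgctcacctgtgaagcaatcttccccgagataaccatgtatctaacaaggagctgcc
Ctsg: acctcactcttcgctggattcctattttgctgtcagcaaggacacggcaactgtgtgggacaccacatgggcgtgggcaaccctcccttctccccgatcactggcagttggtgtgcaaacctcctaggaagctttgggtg
Mmp8: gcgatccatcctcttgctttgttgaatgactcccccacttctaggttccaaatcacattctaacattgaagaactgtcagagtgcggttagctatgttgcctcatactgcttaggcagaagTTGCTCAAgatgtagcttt
Cd177: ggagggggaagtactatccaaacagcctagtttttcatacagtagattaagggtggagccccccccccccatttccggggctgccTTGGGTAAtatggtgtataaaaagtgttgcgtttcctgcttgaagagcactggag
Fpr2: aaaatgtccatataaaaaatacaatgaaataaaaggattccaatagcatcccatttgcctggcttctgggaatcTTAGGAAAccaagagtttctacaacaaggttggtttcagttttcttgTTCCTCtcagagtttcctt
Trem1: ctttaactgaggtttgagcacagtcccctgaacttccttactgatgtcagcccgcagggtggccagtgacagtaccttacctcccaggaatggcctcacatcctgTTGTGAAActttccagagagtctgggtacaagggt
The C/EBP match began 130 bases before the start in S100a9, 19 in Mmp8, 55 in Cd177, 66 in Fpr2 and 35 in Trem1. In Fpr2 a PU.1 match, on the opposite strand, followed at 19 bases. The bases shown of Ctsg held neither motif. Among the genes that fell without ICI 1, Camp, Csf3r, Il1r2 and Mcemp1 had no C/EBP match in their 250 bases, and Ngp had 3. Ncf4, which also fell, had no promoter entry. None of the 4 primary granule genes had a C/EBP match, and each had a PU.1 match.

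Primary granule genes were low in every tumour but ICI 1, where all 4 were highest, and none exceeded 1.83 FPKM elsewhere. Elane, neutrophil elastase (chr10:79886247-79888215), stood at 12.2 FPKM in ICI 1, at 0.328, 0.249 and 0.502 in ICI 2, 3 and 4, and at 0, 0.253, 0 and 0 in RI 1, 2, 4 and 5. Mpo, myeloperoxidase, stood at 7.83, 0.101, 0.199 and 0.707 FPKM in the ICI tumours and at 0, 0.127, 0.0963 and 0.0411 in the RI tumours. The groups overlapped for both genes, and 3 of the 4 RI libraries held no Elane fragment, where 3 fragments would have been worth 0.0715 to 0.113 FPKM. Prtn3, proteinase 3, gave 23.7, 0.616, 0.566 and 1.71 FPKM in ICI and 0, 0.987, 0.19 and 1.83 in RI tumours. Neither Elane (exact permutation p = 0.0571, two-sided), Mpo (p = 0.0571) nor Prtn3 (p = 0.314) passed, and without ICI 1 the exact permutation p-values were 0.0857, 0.0571 and 0.629.

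Ctsg, cathepsin G, was the only primary granule gene that reached the filter for the fit across genes. It gave 14.0, 1.01, 0.185 and 0.296 FPKM in ICI tumours and 1.00, 1.08, 1.76 and 0.863 in RI tumours. The difference was −0.28 (adjusted p = 0.814) with all tumours and 0.56 (adjusted p = 0.126) without ICI 1, so it changed sign and was not called either way. In ICI 1 the primary granule genes exceeded the median of ICI 2, 3 and 4 by 37.4-fold (Elane) to 47.2-fold (Ctsg).

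Secondary granule genes divided between a pair that fell without ICI 1 and the others, for which no call was made. Camp, the cathelicidin precursor (chr9:109847379-109849617), stood at 268, 3.73, 1.19 and 9.15 FPKM in ICI 1, 2, 3 and 4 and at 0, 0.123, 0 and 0.031 in RI 1, 2, 4 and 5. Behind these values were 6691, 114, 33 and 295 fragments in ICI and 0, 3, 0 and 1 in RI tumours, and Camp was the only member with 1 FPKM in all 4 ICI and in no RI tumour. Ngp, a neutrophil granule protein of the cathelicidin-like family (chr9:110419747-110423012), stood at 918, 7.33, 3.99 and 22.1 FPKM in ICI tumours and at 0.727, 1.25, 1.46 and 0.154 in RI tumours. In both genes every RI tumour was below every ICI tumour. With all tumours Camp (difference −3.64, adjusted p = 0.0830) and Ngp (−4.07, adjusted p = 0.0840) were not called. Without ICI 1 Camp fell by 2.18 (adjusted p = 0.0147) and Ngp fell by 2.44 (adjusted p = 0.0216).

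Ltf, lactoferrin, gave 92.6, 1.98, 0.956 and 3.50 FPKM in ICI and 2.11, 0.478, 0.590 and 0.15 in RI tumours. Mmp8, neutrophil collagenase, gave 210, 4.08, 2.02 and 9.60 FPKM in ICI and 0.702, 1.87, 2.29 and 2.71 in RI tumours. RI 1 overlapped the ICI tumours in Ltf, and RI 4 and RI 5 did in Mmp8. Lcn2, the siderophore-binding lipocalin, gave 324, 23.6, 9.33 and 22.1 FPKM in ICI and 5.24, 14.2, 6.29 and 43.6 in RI tumours, where RI 5 was above 3 of the ICI tumours. Without ICI 1 the differences of Ltf (−0.80), Mmp8 (−0.97) and Lcn2 (−0.44) had adjusted p-values of 0.161, 0.149 and 0.694.

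Hp, haptoglobin, which neutrophils store and which liver and fat also make, was high in 1 tumour of each group. It gave 575, 8.38, 16.5 and 34.9 FPKM in ICI 1, 2, 3 and 4, whereas it gave 8.81, 412, 7.38 and 32.8 in RI 1, 2, 4 and 5. Apart from ICI 1 and RI 2 all values lay between 7.38 and 34.9 FPKM. In RI 2 the adipocyte list (Adipoq, Plin1, Plin4, Cfd, Fabp4, Lep, Cidec), chosen after values were seen, summed to 360 FPKM against 3.08 to 22.0 in the other 7 tumours, including 31.2 of Adipoq and 223 of Cfd. The liver list summed to at most 1.88 FPKM in any tumour. The part of fat in the Hp level of RI 2 was not tested. Hp was not called, with a difference of −0.39 (adjusted p = 0.880) in all tumours and 0.86 (adjusted p = 0.697) without ICI 1.

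**Figure D2:**
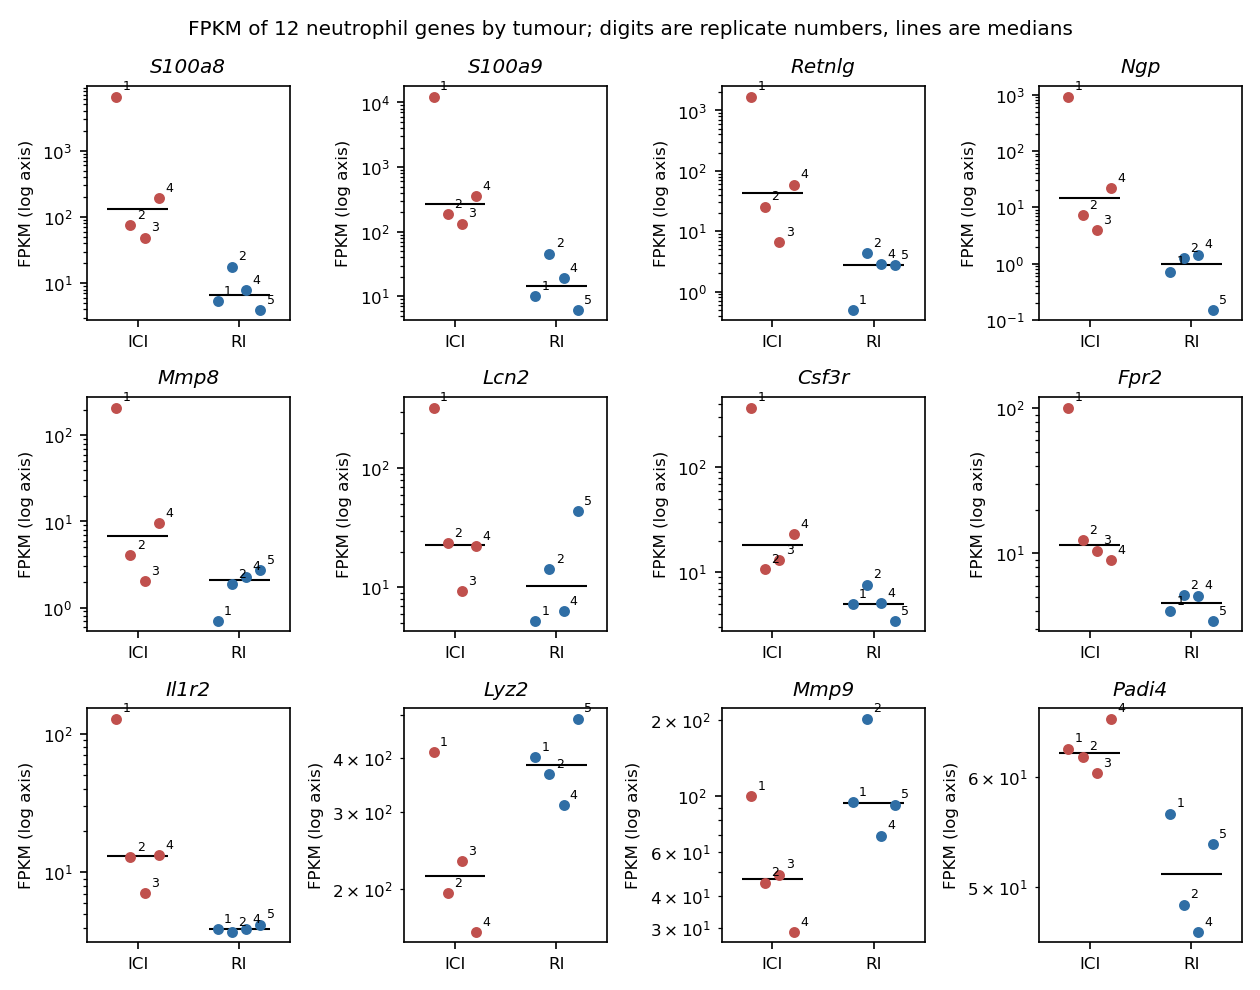
FPKM of 12 members on log axes that differ in range, with 1 point per tumour labelled by its replicate number and a line at each group's median. ICI 1 stands above the other tumours except for Mmp9, Lyz2 and Padi4, which were highest in RI 2, RI 5 and ICI 4.

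Mmp9, gelatinase B and the only tertiary granule gene among the members, ran the other way. It stood at 99.6, 45.3, 48.8 and 28.9 FPKM in ICI 1, 2, 3 and 4 and at 94.4, 203, 69.6 and 92.6 in RI 1, 2, 4 and 5. Only ICI 1 lay within the range of the RI tumours. The difference was 1.05 with all tumours (adjusted p = 0.104) and Mmp9 rose by 1.38 without ICI 1 (adjusted p = 0.0314). Relative to Csf3r, the Mmp9 level was 0.269 to 4.21 in ICI and 13.7 to 26.7 in RI tumours, with no overlap. Csf3r itself was lower in every RI than in every ICI tumour, so even a gene of constant level would give such a separation. The ratio is no separate support for a rise of Mmp9.

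Of the 9 surface genes none was called with all tumours, and 4 fell without ICI 1. Csf3r, the G-CSF receptor (chr4:126024550-126044440), stood at 370, 10.8, 13.2 and 23.1 FPKM in ICI 1, 2, 3 and 4 and at 4.96, 7.67, 5.07 and 3.46 in RI 1, 2, 4 and 5. Il1r2, the decoy receptor for interleukin-1, stood at 128, 12.9, 7.13 and 13.4 FPKM in ICI and at 3.92, 3.73, 3.90 and 4.19 in RI tumours. The 4 RI tumours lay within 3.73 to 4.19 FPKM for Il1r2, all below the lowest ICI tumour. Fpr2, a formyl peptide receptor, gave 101, 12.3, 10.4 and 8.96 FPKM in ICI and 4.03, 5.13, 5.11 and 3.44 in RI tumours. Of 50-base windows along Fpr2, 31.5% also occur in other annotated transcripts, so part of its value is uncertain. Mcemp1, a transmembrane protein of mast cells and neutrophils, gave 66.2, 2.27, 3.05 and 3.29 FPKM in ICI and 1.51, 1.42, 0.81 and 1.35 in RI tumours.

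With all tumours these 4 receptors were not called, with adjusted p-values of 0.110 (Csf3r), 0.0835 (Il1r2), 0.0876 (Fpr2) and 0.181 (Mcemp1). Without ICI 1 all 4 fell, with differences of −1.38 for Csf3r (adjusted p = 0.0157), −1.25 for Il1r2 (adjusted p = 0.0092), −1.09 for Fpr2 (adjusted p = 0.0092) and −0.77 for Mcemp1 (adjusted p = 0.0202). Fpr1, the high-affinity formyl peptide receptor, was not called and its groups overlapped, with 30.4, 3.43, 2.37 and 2.43 FPKM in ICI and 1.09, 3.83, 1.89 and 2.29 in RI tumours. Trem1, an amplifier of inflammatory signalling, likewise overlapped and was not called, with 18.1, 2.97, 1.37 and 2.56 FPKM in ICI and 2.29, 1.40, 0.817 and 2.70 in RI tumours.

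The other surface genes were too low for the fit across genes. Ly6g, the antigen used to define mouse neutrophils, held 575, 10, 30 and 34 fragments in ICI and 1, 0, 0 and 0 in RI tumours. That is 18.5, 0.263, 0.868 and 0.848 FPKM in ICI tumours and 0.0393 FPKM in RI 1, and 3 fragments would have been worth 0.0747 to 0.118 FPKM in the RI libraries. Cd177, a GPI-anchored neutrophil antigen, gave 133, 1.50, 0.902 and 4.00 FPKM in ICI and 0.313, 0.493, 0.3 and 0.0578 in RI tumours. Itgb2l, an integrin beta chain, gave 12.5, 0.0516, 0 and 0.239 FPKM in ICI tumours and was at 0 in all 4 RI tumours. RI lay wholly below ICI for Ly6g and Cd177, for which the exact permutation p of 0.0286 is the smallest that 4 against 4 or 3 against 4 tumours can give, with or without ICI 1. Leaving out any 1 RI tumour raised the exact permutation p to 0.114 for Ly6g and to between 0.0857 and 0.114 for Cd177. For Itgb2l the exact permutation p was 0.143. In a fit that instead tested genes with a mean of at least 1 FPKM, these 3 and the other 5 low members had adjusted p-values of 0.164 to 0.370.

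Of the 6 cytosolic and secreted genes, 2 fell with all tumours and 4 fell without ICI 1, when Lyz2 rose. S100a9, a calprotectin subunit (chr3:90692632-90695721), stood at 12310, 187, 134 and 352 FPKM in ICI 1, 2, 3 and 4 and at 10.2, 45.7, 19.0 and 6.20 in RI 1, 2, 4 and 5. Its partner S100a8 (chr3:90668978-90670035) stood at 6549, 74.4, 48.5 and 190 FPKM in ICI and at 5.33, 17.8, 7.88 and 3.96 in RI tumours. Every RI tumour was below every ICI tumour for both genes. Within the pair, S100a8 was 0.362 to 0.539 times S100a9 in ICI and 0.389 to 0.638 times in RI tumours, ranges that overlap. S100a9 fell by 5.12 (SE 1.37, adjusted p = 0.0380) and S100a8 fell by 4.94 (SE 1.40, adjusted p = 0.0456). Without ICI 1 S100a9 fell by 3.65 (adjusted p = 0.0140) and S100a8 fell by 3.39 (adjusted p = 0.0129). Leaving out each tumour in turn kept these calls only without ICI 1 or without ICI 3, with adjusted p-values of up to 0.0937 (S100a9) and 0.104 (S100a8) when any other tumour was omitted. On values converted to TPM neither passed (adjusted p = 0.231 for S100a9 and 0.260 for S100a8), whereas Il1r2 and Fpr2 fell (adjusted p = 0.0010 for each). With TPM the differences were −2.14 for Il1r2 and −1.89 for Fpr2, against −2.12 and −1.88 on FPKM, where neither was called. The smaller p-values therefore do not reflect a larger fall, and their cause was not tested.

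Retnlg, a resistin-like protein of neutrophils, gave 1693, 25.5, 6.52 and 59.1 FPKM in ICI and 0.499, 4.35, 2.83 and 2.73 in RI tumours. Stfa2, a stefin that inhibits cysteine proteases, gave 1623, 8.84, 4.57 and 29.3 FPKM in ICI and 0, 3.23, 0.875 and 0.349 in RI tumours. Both were lower in every RI tumour, and without ICI 1 both fell, with differences of −2.81 for Retnlg (adjusted p = 0.0456) and −2.71 for Stfa2 (adjusted p = 0.0355). Of 50-base windows along Stfa2, 15.9% occur in other stefin genes. Stfa3, a further stefin, gave 629, 1.81, 0.661 and 11.2 FPKM in ICI and 0.0899, 0.679, 0.133 and 0 in RI tumours, where RI 2 was just above ICI 3 (exact permutation p = 0.0571).

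Lyz2, lysozyme M, which neutrophils share with macrophages, was higher in RI. It stood at 411, 196, 232 and 160 FPKM in ICI 1, 2, 3 and 4 and at 402, 366, 311 and 491 in RI 1, 2, 4 and 5. All RI tumours were above ICI 2, 3 and 4, and ICI 1 lay among them. The difference was 0.73 with all tumours (adjusted p = 0.109), and Lyz2 rose by 1.00 without ICI 1 (adjusted p = 0.0127). Its neighbour Lyz1, with which it shares 15.4% of its 50-base windows, was at 23.1 FPKM in ICI 1 and at most 0.968 in the others.

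Subunits of the NADPH oxidase, which makes superoxide in phagocytes, did not move as a unit. Ncf4, the p40phox subunit, gave 249, 21.8, 19.7 and 20.5 FPKM in ICI and 16.0, 12.3, 9.12 and 13.3 in RI tumours, all RI below all ICI. Cybb, the membrane subunit gp91phox, gave 19.9, 8.04, 6.46 and 5.15 FPKM in ICI and 16.2, 8.76, 14.3 and 9.65 in RI tumours, with RI above ICI 2, 3 and 4. Without ICI 1 Ncf4 fell by 0.69 (adjusted p = 0.0255) and Cybb rose by 0.78 (adjusted p = 0.0379). Cybb relative to Ncf4 did not overlap between groups, at 0.0796 to 0.369 in ICI and 0.715 to 1.57 in RI tumours. Since Ncf4 alone separated the groups, this ratio is no separate support for a rise of Cybb. Ncf1, the p47phox subunit, overlapped and was not called, with 66.1, 4.67, 5.07 and 6.85 FPKM in ICI and 5.75, 8.17, 4.04 and 9.51 in RI tumours.

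The nuclear proteins gave opposite pictures of ICI 1. Padi4, the histone-citrullinating enzyme of neutrophil extracellular traps, was at 62.9, 62.1, 60.4 and 66.1 FPKM in ICI and at 56.5, 48.6, 46.4 and 53.7 in RI tumours. Its level in ICI 1 was 1.01 times the median of ICI 2, 3 and 4. All RI values lay below all ICI values, but Padi4 was not called (difference −0.29, adjusted p = 0.154), and the sign turned to 0.022 when FPKM were rescaled without mitochondrial genes and the largest rows. Cebpe, the C/EBP factor needed for secondary granules, gave 10.5, 0.18, 0.241 and 0.739 FPKM in ICI and 0.179, 0, 0.332 and 0.0567 in RI tumours (exact permutation p = 0.114).

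**Figure D3:**
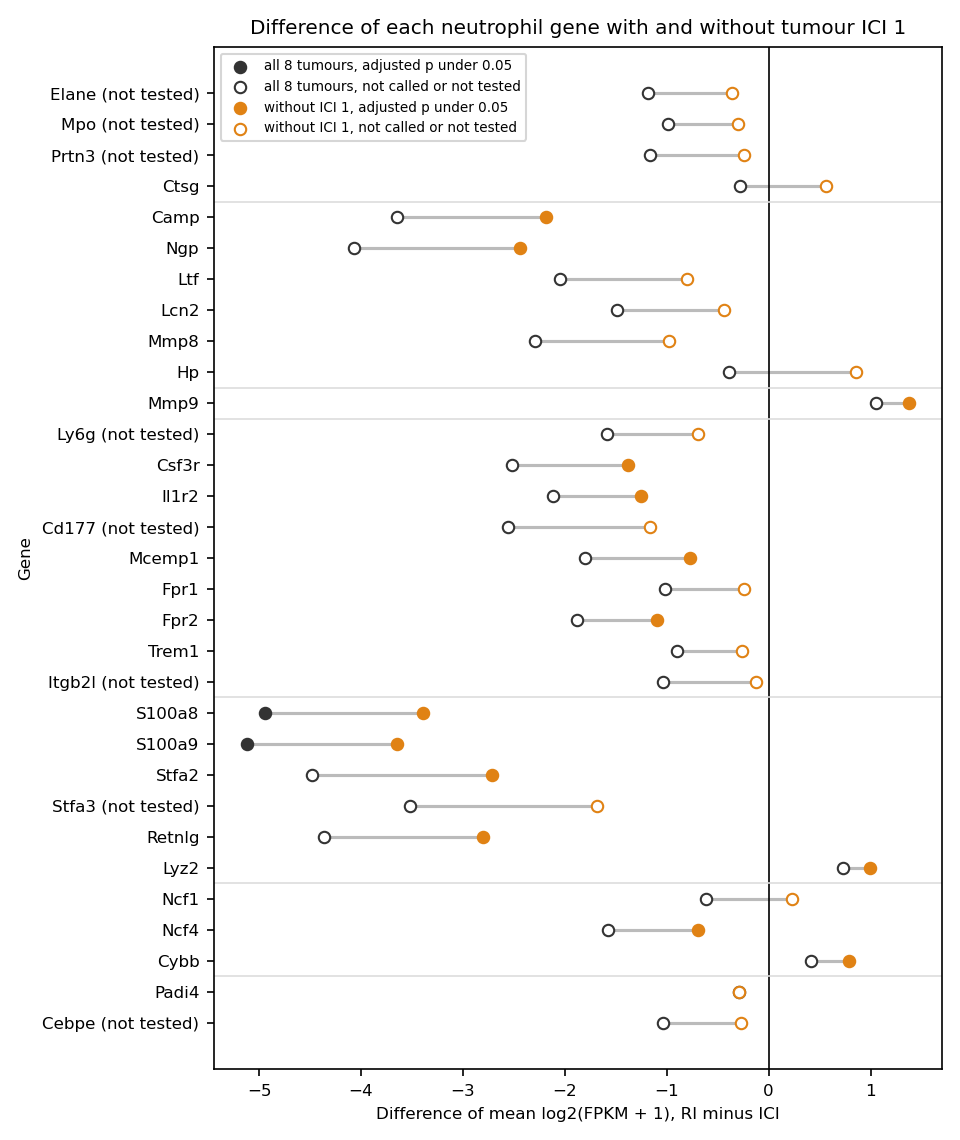
Difference RI minus ICI on log2(FPKM + 1) for the 31 genes, with all 8 tumours (dark) and without ICI 1 (orange), ordered by role. Filled points passed the adjusted p of 0.05, a grey line joins both values of a gene, and "not tested" marks the 8 genes below the filter. Leaving out ICI 1 brings most members nearer to 0, S100a9 from −5.12 to −3.65, and moves Mmp9, Lyz2 and Cybb further above it.

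Granule classes and surface receptors were then set side by side. Median differences were −1.08 over the 4 primary granule genes, −2.17 over the 6 secondary, 1.05 for Mmp9, −1.80 over the 9 surface genes and −4.42 over the 6 cytosolic or secreted genes. Without ICI 1 they were −0.27, −0.89, 1.38, −0.77 and −2.76 in the same order. The class mean of log2(FPKM + 1) kept all RI tumours below all ICI tumours for the surface genes, at 1.91 to 5.85 in ICI and 1.24 to 1.48 in RI. For the secondary granule genes the tumours overlapped, at 2.25 to 8.28 in ICI and 1.52 to 2.67 in RI, and they also did for the primary granule genes. The secondary overlap lay in RI 2 alone, at 2.67 with ICI 3 at 2.25, while RI 1, 4 and 5 reached at most 2.15. Hp, which entered this mean, was 412 FPKM in RI 2 and 16.5 in ICI 3. No class mean without Hp was formed, so the overlap does not set secondary granule genes apart from surface genes. Of the 9 surface genes 6 had all RI values below all ICI values, as had 2 of the 6 secondary and none of the 4 primary granule genes. The share was 11.2% of all genes tested, a set without Ly6g, Cd177, Itgb2l, Elane, Mpo and Prtn3, which these counts include. Of the surface genes counted, Ly6g and Cd177 were among those below the filter. These class values describe the genes and were not tested.

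ICI 1 itself differed by class. Its level over the median of ICI 2, 3 and 4 was 39.0-fold at the median of the primary granule genes, 49.2-fold for the secondary, 21.7-fold for the surface genes and 77.2-fold for the cytosolic or secreted genes. The range within a class was broad, from 7.06-fold (Trem1) to 243-fold for Itgb2l over near-zero levels among surface genes, and from 14.7-fold (Lcn2) to 125-fold (Ngp) among secondary granule genes. For Mmp9 it was 2.20-fold.

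Dividing each FPKM by that of Csf3r in the same tumour sorted the members further, with no test made of these ratios. S100a9 per Csf3r was 33.3, 17.4, 10.2 and 15.2 across the ICI tumours and 2.06, 5.96, 3.75 and 1.79 across the RI tumours. Ngp per Csf3r was 2.48, 0.681, 0.303 and 0.955 in ICI and 0.146, 0.163, 0.289 and 0.0443 in RI tumours. Both ratios, and those of Camp and Cd177, were lower in every RI than in every ICI tumour. The receptors Il1r2 and Fpr2 showed no such separation, Il1r2 per Csf3r being 0.347 to 1.20 in ICI and 0.487 to 1.21 in RI tumours. Ltf, Mmp8, Lcn2, Retnlg and Stfa2 per Csf3r also overlapped. Among the separated ratios the gap was narrow for Ngp, at 0.303 in ICI 3 against 0.289 in RI 4. The RI ratios of Camp rest on 0 to 3 fragments a tumour. Of 50-base windows along Csf3r, 10.7% also occur in other annotated transcripts. For ratios of 2 genes no background share was worked out, here or for Mmp9 and Cybb above.

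Ratios of the mean of ICI 2, 3 and 4 to the RI mean covered a wide range in each class. Among secondary granule genes the ratio was 122 for Camp, whose RI mean rests on 0 to 3 fragments a tumour, 12.4 for Ngp, 2.77 for Mmp8, 2.58 for Ltf, 1.06 for Lcn2 and 0.173 for Hp. Among primary granule genes it was 5.69 for Elane, 5.08 for Mpo, 1.28 for Prtn3 and 0.422 for Ctsg. Among surface genes it was 7.34 for Cd177, 2.97 for Csf3r, 2.83 for Il1r2, 2.38 for Fpr2, 2.26 for Mcemp1, 1.28 for Trem1 and 1.21 for Fpr1. No ratio was formed for Ly6g and Itgb2l, for lack of fragments in the RI tumours. Their means were 0.660 and 0.0969 FPKM in ICI 2, 3 and 4 against 0.0098 and 0 in RI, so 7.34 is no upper bound for surface genes. Granule and surface genes thus spanned overlapping ranges. The cytosolic or secreted genes gave 11.1 for S100a9, 11.9 for S100a8, 11.7 for Retnlg, 12.8 for Stfa2 and 20.2 for Stfa3, but 0.499 for Lyz2. These ratios of means leave out ICI 1 and carry no test of their own.

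**Figure D4:**
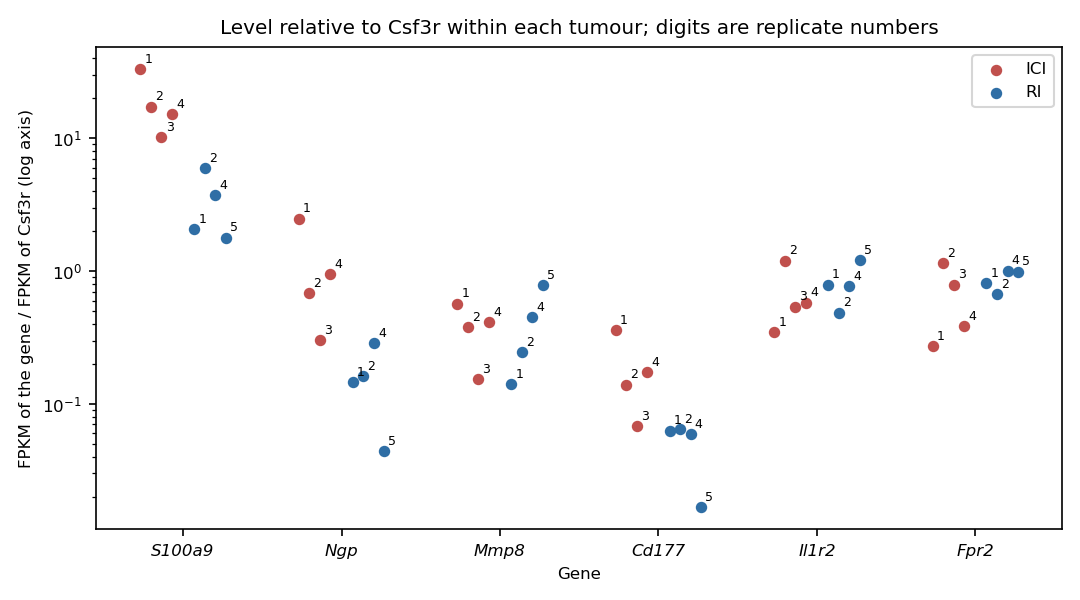
FPKM of 6 members divided by the FPKM of Csf3r in the same tumour, on a log axis, with 1 point per tumour of each group. S100a9 runs from 10.2 to 33.3 in ICI and from 1.79 to 5.96 in RI tumours, whereas Mmp8, Il1r2 and Fpr2 overlap between the groups.

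Other neutrophil genes were read from lists of the same kinds. With all tumours none of 7 tested granule genes, 13 surface genes, 9 stefins and small proteins or 3 NADPH oxidase subunits was called, with median differences of −0.80, −0.87, −1.69 and −0.70. Without ICI 1, Pglyrp1, a peptidoglycan-binding granule protein, fell (adjusted p = 0.0470), as did the chemokine receptor Cxcr2 and the small proteins Stfa2l1 and Asprv1, while the nucleic acid sensor Tlr13 rose. Of 7 granulocyte transcription factors tested, Cebpb fell, at 291, 297, 321 and 175 FPKM in ICI and 138, 154, 125 and 151 in RI tumours (adjusted p = 0.0260). Its RI values were all below its ICI values.

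Among markers of cells that share some of these genes, 1 of 8 macrophage and 1 of 5 monocyte markers rose with all tumours. Of all genes tested 11.1% rose and 6.6% fell, and without ICI 1 it was 11.7% and 8.29%. Adgre1, the macrophage marker F4/80, rose, at 1.15, 1.13, 1.47 and 1.12 FPKM in ICI and 6.14, 9.02, 6.94 and 8.64 in RI tumours (adjusted p = 0.0016), and it was the only 1 of 8 macrophage markers called with all tumours. Without ICI 1 Mertk, a receptor for apoptotic cells, rose as well (difference 0.61, adjusted p = 0.0496). Other macrophage markers were not called, Cd68 being at 60.6 ± 2.89 FPKM in ICI and 55.3 ± 12.6 in RI tumours (SD, n = 4). The monocyte marker F13a1 rose, with a difference of 1.34 (adjusted p = 0.0369), and of 1.59 without ICI 1 (adjusted p = 0.0172). It was the only 1 of 5 monocyte markers called, with or without ICI 1. With all tumours Vcan (0.36) and Ly6c2 (0.10) had the same sign, whereas Cx3cr1 (−0.80, adjusted p = 0.0663) and Ccr2 (−0.06) had the other. The summed macrophage list ran from 348 to 446 FPKM in ICI and from 335 to 811 in RI tumours, and the monocyte list from 7.32 to 25.0 and from 14.7 to 26.6. The part of macrophages in the levels of Lyz2, Cybb and Mmp9 was not tested. Red blood cell genes, which arrive with blood as neutrophils do, summed to 209 to 1064 FPKM in ICI and 0.465 to 103 in RI tumours, and 2 of 4 tested fell. Without ICI 1 none of the 4 passed, though the differences were nearly as large, with a median of −3.14 against −3.47. The part of blood in the neutrophil genes was not tested. The stefins and S100a8 are also made by keratinocytes, whose defining genes Krt1 and Flg were under 0.1 FPKM in all 8 tumours. The keratinocyte list summed to 2.41 to 3.32 FPKM in ICI and 1.28 to 3.91 in RI tumours. Of its 2 tested genes Krt10, a suprabasal keratin, fell (adjusted p = 0.0227). The other, Krt14, ran the opposite way and was not called (difference 0.76, adjusted p = 0.106).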

How the data were processed

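Whole RNA of 8 tumours (4 per group) was sequenced; groups and replicate numbers are from the sample titles. The authors deposited FPKM in 1 table. HISAT2 and GRCm38 (mm10) are named, without version, per the submitters' processing notes. For the counting program and annotation, nothing is given in the sources used here. Although 3 replicates a group are mentioned in the series' design, 4 were listed and used.

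The test took the 13439 genes that reached 1 FPKM in 4 or more tumours, as log2(FPKM + 1) with the pseudocount at 1, in limma (lmFit, eBayes with trend and robust variance; limma 3.58.1, R 4.3.3), two-sided, with Benjamini-Hochberg adjustment over all of them. Each adjusted p is from this test. The 8 members below the filter went into exact permutation tests (all 70 regroupings, unadjusted) and limma on genes with a mean of at least 1 FPKM. Coordinates and exon lengths are from GENCODE M21 on GRCm38. Fragments were recovered from the steps between low FPKM: 98.6% to 98.8% of low values came within 0.05 of whole fragments. Fragments gave depth and 1 alternative fit. A value of 0 was set beside the worth of 3 fragments, which covers counting error only. No 2 libraries of the same group agreed within sampling noise. In 10 simulated data sets of these 13439 genes, the share called was 56.2% at a log2 shift of 1 and 91.5% at a shift of 2, and 4.71% of calls were false. The simulated noise was normal, independent between genes and of equal spread in both groups, so it held no tumour like ICI 1. These shares therefore do not carry over to the members.

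The members and lists were chosen with earlier results of these data known, and no list was tested. All 31 members are named, and of other lists up to 4 genes with the smallest p; the adipocyte list, Lyz1 and the list genes named beyond that rule were chosen after their values were seen. Alternatives were other filters, pseudocounts, scalings and variance models, the replicate block, each tumour left out, and, chosen after seeing the data, the filter on the mean of at least 1 FPKM. The labels give no sequencing batch.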

Additional observations from a re-analysis of the deposited data

Results flagged for a closer look

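In 11 of 61 groups of 4 tumours examined, 1 tumour lay farther from the other 3 than Dixon's 95% critical value for 4 samples allows, the value being its gap to the nearest tumour divided by the whole range. Chance flags about 5% of groups, and the members share tumours, so these groups are not independent. Among the ICI tumours it was ICI 1 in all 9 cases, high in each. The values were 0.96 for Ncf4, 0.922 for Elane, 0.918 for Itgb2l, 0.911 for Mcemp1, 0.877 for Fpr1, 0.876 for Fpr2, 0.869 for Ncf1, 0.857 for Ly6g and 0.83 for Cebpe. Among the RI tumours, Elane gave 1.0 because only RI 2 held fragments (8 of them), and Ly6g gave 1.0 because only RI 1 did (1 fragment). The values were examined on log2(FPKM + 1). S100a8 and S100a9, for all the height of ICI 1, were not among them.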

How the results depend on the processing

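Of the values for single members under other settings, 541 stayed on the same side of the threshold with the same sign, 42 passed anew, 33 no longer passed and 14 changed sign. The number of members that fell, 2 with all tumours, was 0 without the filter (12 members at an unadjusted p under 0.05), 1 with a mean of at least 5 FPKM, 1 with a pseudocount of 5, 7 with array weights, 1 with length and GC trends removed, 0 with limma voom on recovered fragments (4 members at an unadjusted p under 0.05), 3 with a pseudocount of 0.1 and 11 without both ICI 1 and RI 4. Leaving out single tumours gave 0 to 11. With TPM the count was again 2 but of other genes, Il1r2 and Fpr2 in place of S100a8 and S100a9. The number that rose, 0, was 1 with quantile normalization (Lyz2), 2 after rescaling without mitochondrial genes and the largest rows (Mmp9, Lyz2), 2 with array weights and 2 without both ICI 1 and RI 4, and 0 to 3 with single tumours left out. Genes of the whole table that rose, 1486, numbered 190 without the filter, 192 with TPM, 4349 after rescaling, 2729 with array weights, 2408 with voom, and 243 to 1579 with single tumours left out. Those that fell, 887, numbered 51 without the filter, 88 with TPM, 1406 with quantile normalization, 1623 with median centring, 506 after rescaling, 1590 with array weights, and 93 to 1114 with single tumours left out. The share of calls that rose, 62.6%, was 48.0% with median centring and 89.6% after rescaling, which moved the median difference of all genes to 0.27; with TPM that median was 0.11. The cause was not tested.

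Leaving out single tumours gave differences of −0.66 to 0.56 for Ctsg, −1.61 to 0.86 for Hp and −0.96 to 0.23 for Ncf1. Signs that changed were those of Ctsg (0.10 with a pseudocount of 0.1, 0.30 with array weights, 0.40 with voom, 0.56 without ICI 1, 0.45 without both ICI 1 and RI 4), Hp (1.95 with array weights, 0.86 without ICI 1, 0.19 without RI 1, 0.27 without RI 4, 1.51 without both), Ncf1 (0.27 with array weights, 0.23 without ICI 1, 0.42 without both) and Padi4 (0.022 after rescaling).

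Replicate numbers 1, 2 and 4 occur in both groups, but same-numbered tumours did not deviate together (r of −0.0923, −0.120 and −0.124), so the numbers were not read as pairs. With the replicate block 16 genes rose and 6 fell, with the block and length and GC trends removed 3 rose and 0 fell, and 0 members were called in either, with 5 and 7 at an unadjusted p under 0.05.

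With 4 tumours per group, exact permutation p-values cannot go below 0.0286. Depth limits Elane, Mpo, Ly6g, Itgb2l and Camp in the RI tumours, where most libraries held few or no fragments. Part of Fpr2, Stfa2, Lyz2 and Csf3r is shared with other transcripts. The same holds for Mpo (9.46% of 50-base windows), Ncf1 (7.445%), Prtn3 (6.448%) and Cd177 (5.51%). These 8 were the members with more than 5% of windows shared.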
